A study of Mus musculus with 15 samples.

Results

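The comparison set pancreatic acini exposed to the bile acid TLC-S at 62.5 uM against acini kept without drug, by small RNA sequencing. TLC-S is taurolithocholic acid 3-sulfate, a sulfated bile acid that is used on acinar cells as a model of biliary pancreatitis. All libraries came from pancreas of C57BL/6 mice aged 7 to 8 weeks; no transgene or genetic change is given in the labels, and neither is the length of exposure. Per the labels, RNA was pooled from 3 independent acinar preparations, so a library need not be 1 animal. The members were chosen by the sample titles: 3 libraries of TLC-S 62.5 uM and 3 of control, 6 of the 15 in the series. The other 9 libraries are 3 each of TLC-S 250 uM, Caerulein 100 nM (a dose the labels call pathological) and Caerulein 100 pM (called physiological); caerulein is a peptide that acts on the cholecystokinin receptor of acinar cells. The count table lists 1915 mature miRNAs. Some reads fell on 867 of them, and 351 had enough counts to be tested, which means that they passed the filter on low counts described under the processing.

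A miRNA is cut from a hairpin precursor, and either arm of the hairpin (5p or 3p) can be loaded onto an Argonaute protein. The loaded strand pairs with target mRNAs mainly through its seed, bases 2 to 8 from its 5′ end, and lowers their translation and stability, so miRNAs with 1 seed share many targets. Acinar cells make the digestive enzymes of the pancreas, and miR-148a, miR-216a, miR-216b and miR-217 are known for their high level in them.

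Sequences are given 5′ to 3′ with the seed in capitals, from RefSeq with positions on GRCm38.p6. The first set holds the called miRNA with the smallest adjusted p against control, miR-3968, and miR-190a-5p, which had the third lowest p among the lower miRNAs, with miR-190b-5p, the other tested miRNA of its seed:
miR-3968: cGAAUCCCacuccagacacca
miR-190a-5p: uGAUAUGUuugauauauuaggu
miR-190b-5p: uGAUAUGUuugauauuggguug
The next set holds miRNAs that were higher with TLC-S 62.5 uM than in the other treated acini, and 2 that lie at the head of the list of higher miRNAs against control:
miR-335-5p: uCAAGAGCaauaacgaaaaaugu
miR-542-3p: uGUGACAGauugauaacugaaa
miR-195a-5p: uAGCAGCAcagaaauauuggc
miR-203-3p: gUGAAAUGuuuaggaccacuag
miR-146a-5p: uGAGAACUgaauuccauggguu
miR-184-3p: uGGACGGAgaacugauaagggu
The third set holds the passenger arms of the acinar miRNAs miR-216a and miR-217, whose seeds differ from each other:
miR-216a-3p: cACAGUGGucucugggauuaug
miR-217-3p: cAUCAGUUccuaaugcauugccu
The last set shows the seed of the miR-30 guides, to which the called miRNA miR-30b-5p belongs:
miR-30a-5p: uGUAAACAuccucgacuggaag
miR-30c-5p: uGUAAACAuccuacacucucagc
miR-30e-5p: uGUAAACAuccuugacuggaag

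The 6 libraries held between 1268664 and 2847458 counts. Control replicate 3 stood apart: miR-148a-3p took 50.5% of its counts, against 17.6% and 18.7% in the other controls and between 21.8% and 27.8% in the TLC-S 62.5 uM libraries, and calls and directions that change without it are given both ways. Levels below are CPM (the library's counts scaled to a common total by TMM), which adjusts for such a skew in composition. Differences are log2 of TLC-S 62.5 uM over control from edgeR's quasi-likelihood model. Nothing in the labels says that the replicates of a group came from separate mice, so the p-values measure library-to-library spread, part of which may be technical. A lower level in these bulk libraries could come from fewer cells of a type or from less RNA per cell, which cannot be told apart here.

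Against control, 2 of the 351 miRNAs changed at an adjusted p under 0.05 in edgeR, or 0.57%: miR-3968 and miR-30b-5p, both lower. No miRNA was called higher in edgeR, although 16 reached an unadjusted p under 0.05 in that direction (4.56%) and 10 did so in the lower direction (2.85%); DESeq2 called 4 miRNAs, 1 of them higher. The libraries of the groups did not overlap for 43 miRNAs (12.3%), of which 22 were higher (6.27%) and 21 lower (5.98%). Separation of 3 libraries from 3 can also arise without any difference between groups, so a lack of overlap alone is not a call. Over all tested miRNAs the median difference was -0.01, and 171 lay above 0 (48.7%). The median 95% interval, which is not adjusted for the 351 tests, reached 0.72 to either side. A change smaller than that would usually not have been detectable with 3 libraries a group. Calls at the adjusted threshold usually needed a larger change, and miR-542-3p at 1.34 and miR-708-5p at 1.23 were not called in edgeR.

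**Figure D1:**
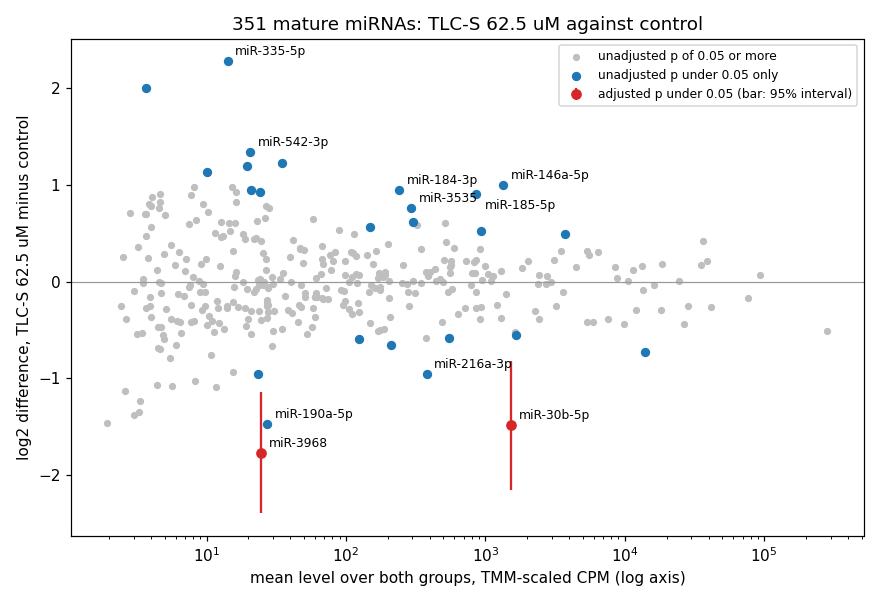
Each point is 1 of 351 miRNAs; the x axis is its mean level over both groups in TMM-scaled CPM on a log axis and the y axis its log2 difference, TLC-S 62.5 uM minus control. Grey points have an unadjusted p of 0.05 or more, blue points an unadjusted p under 0.05 only, and the 2 red points, miR-3968 and miR-30b-5p with their 95% intervals, an adjusted p under 0.05; both lie below 0.

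miR-3968 had 40.7, 41.5 and 33.0 CPM in the controls and 11.6, 11.7 and 10.3 CPM with TLC-S 62.5 uM. Every treated library lay below every control, and the treated libraries lay closer together than the controls. These levels rest on 84, 111 and 69 counts in the controls and 24, 29 and 15 counts in the treated libraries. Counting error alone at such low counts is wider than the spread of the treated levels. Their closeness thus shows nothing about how steady the difference was. The difference was -1.77 ± 0.30 (SE, n = 3 libraries a group), 3.40-fold lower, with an adjusted p of 0.00152 in edgeR. The call ended when the 2 groups were fitted alone (adjusted p = 0.0562 in edgeR) and in limma on log2(RPM + 1) (adjusted p = 0.063), with differences of -1.76 and -1.56. Without any 1 of the 6 libraries the call held in edgeR, with differences from -1.85 to -1.70.

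The hairpin of miR-3968 is annotated at chr11:115447961-115448060 (GRCm38, minus strand), opposite an exon of the protein-coding gene Trim80. Its sequence is shown to place the mature arm, in capitals at bases 72 to 92:
Mir3968 hairpin: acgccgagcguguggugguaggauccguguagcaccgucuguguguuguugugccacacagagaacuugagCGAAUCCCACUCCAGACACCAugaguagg
Among GENCODE transcripts an exact match to the whole mature sequence was found in Mir3968 itself and, in antisense, in Trim80. RNAs that match only in part, or that are not among these transcripts, could not be found this way. Whether the counting used strand is not given in the sources used here, so reads of the miRNA and of Trim80 cannot be told apart. The mature sequence ends in CCA, letters searched at the 3′ end of mature sequences and found in 5 of the 312 tested miRNAs that have one in RefSeq (1.6%). Mature tRNAs carry the same ending, and for miR-3968 these letters also lie in the hairpin sequence printed above. Whether reads of other RNAs entered the count of miR-3968 was not tested. Among the 312 tested miRNAs with a RefSeq sequence no other has the seed GAAUCCC, and it was the 1 seed of 246 that was called lower when counts were summed by seed (0.407% of seeds, difference -1.75 ± 0.30 SE, adjusted p = 0.000836 in edgeR). miR-30b-5p entered no seed sum.

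miR-30b-5p, a member of a broadly expressed epithelial miRNA family, had 1540, 1332 and 3880 CPM in the controls and 596, 1026 and 793 CPM with TLC-S 62.5 uM. The groups did not overlap, but control replicate 3 was far above the other controls. The difference was -1.48 ± 0.32 (SE, n = 3), 2.80-fold lower, with an adjusted p of 0.0191 in edgeR. Without control replicate 3 it was -0.82 and no longer called (adjusted p = 0.416 in edgeR). The call also ended without TLC-S 62.5 uM replicate 1 (-1.29, adjusted p = 0.141 in edgeR) and without replicate 3 (-1.53, adjusted p = 0.0723 in edgeR), and with scaling by library totals (-1.22, adjusted p = 0.0734 in edgeR). It ended as well with the 2 groups fitted alone (-1.47, adjusted p = 0.148 in edgeR) and in limma on log2(RPM + 1) (-1.21, adjusted p = 0.186). Its passenger arm miR-30b-3p had 36.3, 24.7 and 32.0 CPM in the controls and 14.97, 14.5 and 18.6 CPM in the treated libraries, again with no overlap. Its difference was -0.96 ± 0.37 (SE, n = 3), with an adjusted p of 0.489 in edgeR.

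Of the 11 tested miRNAs of the miR-30 family, 8 lay below 0, 3 above, and 1 was called; their median was -0.37, and -0.14 without TLC-S 62.5 uM replicate 1. The guide arms did not move as one. miR-30a-5p, the most abundant, had 33350, 32340 and 27270 CPM in the controls and 44170, 39250 and 40910 CPM in the treated libraries, higher in each of them than in any control. Its difference of 0.42 ± 0.21 (SE, n = 3) did not pass (adjusted p = 0.68 in edgeR). miR-30d-5p (0.32 ± 0.22 SE) and miR-30e-5p (0.22 ± 0.26 SE) lay above 0 and miR-30c-5p (-0.37 ± 0.23 SE) below, none of them called. The passenger arms miR-30e-3p and miR-30d-3p had differences of -0.67 and -0.76 at levels under 50 CPM. miR-30d-3p rested on 35, 28 and 26 counts in the controls and 1, 11 and 29 in the treated libraries. Its difference ranged from -2.39 to -0.14 with 1 library left out.

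Mir30b and Mir30d lie in 1 cluster on the minus strand of chromosome 15. Mir30b is annotated at chr15:68337415-68337510 (GRCm38) in an exon of the noncoding gene Gm26621, and Mir30d at chr15:68341208-68341289. The log2 ratio of miR-30b-5p to miR-30d-5p counts needs no scaling between libraries. It was -1.69, -1.73 and -0.35 in the controls and -3.72, -2.47 and -2.46 with TLC-S 62.5 uM, and the 12 libraries outside that group, controls included, ranged from -1.73 to -0.35. The 3 treated libraries thus held the 3 lowest ratios of the 15; this ratio was picked after the values were seen and was not tested. miR-30b-5p made up 5.41% ± 3.65 of the counts of the 5 miR-30 guides in the controls and 1.55% ± 0.50 with TLC-S 62.5 uM (SD, n = 3). Without control replicate 3 the controls stood at 3.47% and 3.15%, still above each treated library (1.04%, 2.04% and 1.57%). The 5 guides together took 4.31% ± 1.17 of all counts in the controls and 5.74% ± 0.24 in the treated libraries (SD, n = 3), a gap of 1.43 percentage points that was 0.753 without control replicate 3. The summed guides were thus higher in each library in which miR-30b-5p was low; this sum was not tested.

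**Figure D2:**
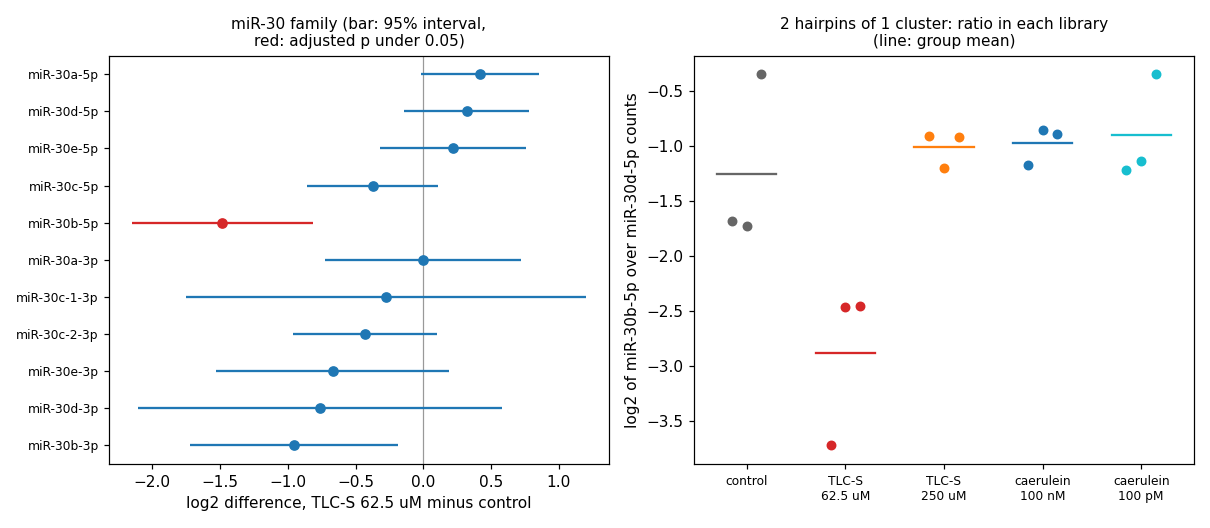
Left, log2 difference (TLC-S 62.5 uM minus control) of the 11 tested miR-30 miRNAs with 95% intervals, red where the adjusted p is under 0.05; miR-30b-5p at -1.48 is the red point. Right, log2 ratio of miR-30b-5p to miR-30d-5p counts in each of the 15 libraries, with a line at each group mean; the TLC-S 62.5 uM libraries lie between -3.72 and -2.46, below the other 12.

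Among the other lower miRNAs, miR-190a-5p was next by p. It lies in an intron of Tln2, the gene of the adhesion protein talin 2, on chromosome 9. Its levels were 55.2, 32.9 and 32.5 CPM in the controls and 13.5, 17.7 and 11.7 CPM in the treated libraries, with no overlap. The difference was -1.47 ± 0.41 (SE, n = 3) with an adjusted p of 0.136 in edgeR. It was called in 3 of 18 alternative settings, among them no filter on low counts (adjusted p = 0.0425 in edgeR) and DESeq2 (adjusted p = 0.0363). No fit with 1 library left out called it (adjusted p from 0.114 to 0.457 in edgeR). Summed with miR-190b-5p by their shared seed, the difference was -1.31 ± 0.36 (SE). Of the other lower miRNAs, miR-126a-5p, an endothelial miRNA from an exon of Egfl7, had a difference of -0.58 and no overlap between groups. miR-26a-5p (-0.73), which is among the abundant miRNAs of many tissues, overlapped between groups, and 1 library set much of its value: it was -0.20 without control replicate 3 and -1.09 without control replicate 2. The groups also overlapped for miR-5099 (-0.60), miR-204-5p (-0.93) and miR-7a-1-3p (-1.08). None of these passed.

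On the higher side, miR-335-5p had the largest difference of all 351 miRNAs. It is cut from an intron of Mest, an imprinted gene on chromosome 6. Its levels were 2.42, 7.48 and 4.30 CPM in the controls and 25.1, 18.9 and 26.9 CPM in the treated libraries, which is 5, 20 and 9 counts against 52, 47 and 39. The groups lay far apart. The difference was 2.27 ± 0.64 (SE, n = 3), 4.84-fold higher, with an adjusted p of 0.136 in edgeR. It was called in 4 of 17 alternative settings. Among these were DESeq2 (adjusted p = 0.0363), no filter on low counts (adjusted p = 0.0323 in edgeR) and limma on log2(RPM + 10) (adjusted p = 0.0176). No fit with 1 library left out called it (adjusted p from 0.129 to 0.457 in edgeR).

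miR-542-3p, from a cluster of hairpins on the X chromosome, had 16.5, 8.60 and 10.0 CPM in the controls and 34.8, 19.7 and 34.5 CPM in the treated libraries, with no overlap. Its difference was 1.34 ± 0.40 (SE, n = 3; adjusted p = 0.171 in edgeR). The 6 tested miRNAs of the 5 hairpins within this cluster (Mir450b, Mir542, Mir351, Mir503 and Mir322) lay above 0 in 5 cases. miR-322-5p had a difference of 0.78, miR-322-3p of 0.61, miR-351-5p of 0.23 and miR-503-5p of 0.70, while miR-450b-5p was at -0.68; none passed. For miR-503-5p the sign rested on 1 library, and without TLC-S 62.5 uM replicate 1 its difference was -0.90. The list of this X-linked cluster, with miR-450a-5p added, had a median of 0.61 over 7 tested miRNAs and of 0.12 without the same library.

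miR-146a-5p, which NF-kB induces and which dampens innate immune signalling, had 894, 1142 and 659 CPM in the controls and 1062, 1427 and 2895 CPM in the treated libraries. The highest value was in TLC-S 62.5 uM replicate 3 and the groups overlapped. Its difference was 1.00 ± 0.32 (SE, n = 3; adjusted p = 0.229 in edgeR), and 0.42 without that library. miR-184-3p, known from islets and other neuroendocrine cells, had 130, 166 and 199 CPM in the controls and 269, 248 and 441 CPM in the treated libraries, without overlap. Its difference was 0.95 ± 0.31 (SE, n = 3; adjusted p = 0.229 in edgeR). miR-185-5p, from an intron of Tango2, had 702, 740 and 338 CPM in the controls and 1396, 757 and 1183 CPM in the treated libraries, a difference of 0.91 ± 0.32 (SE, n = 3). miR-3535 (0.76) and miR-1839-5p (0.50) were higher in each treated library than in any control, whereas the libraries overlapped for miR-708-5p (1.23), miR-31-5p (0.93) and miR-320-3p (0.61). None of these passed in that fit, at adjusted p-values of 0.229 or more in edgeR; with no filter on low counts miR-146a-5p did (adjusted p = 0.0323 in edgeR).

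The acinar miRNAs were examined as a list of both arms of miR-148a, miR-216a, miR-216b and miR-217. All 8 were tested and had differences below 0, none was called, and their median was -0.51, against -0.01 for all tested miRNAs. With scaling by library totals the list's median was -0.34 and that of all miRNAs 0.08. miR-217-5p, the most abundant arm of its hairpin, had 64440, 99100 and 80950 CPM in the controls and 67900, 62210 and 86860 CPM in the treated libraries, a difference of -0.17 that was 0.0045 without control replicate 2. miR-148a-3p had 157600, 157900 and 687500 CPM in the controls and 260900, 255100 and 190500 CPM in the treated libraries. Its difference of -0.51 ± 0.40 (SE, n = 3) turned to 0.60 without control replicate 3. The acinar list took 27.2%, 33.9% and 58.2% of all counts in the controls and 36.3%, 36.4% and 33.9% in the treated libraries, so the sum overlapped between groups while the fitted differences were below 0.

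Within the acinar list the passenger arms lay lower than the guides of their own hairpins for miR-216a, miR-216b and miR-217. The test of 3p over 5p counts described below called none of these hairpins. Their log2 ratios changed by -0.60 ± 0.41, -0.21 ± 0.40 and -0.49 ± 0.30 in that order (SE, adjusted p = 0.969 each in limma). miR-216a-3p had 478, 445 and 581 CPM in the controls and 334, 270 and 170 CPM in the treated libraries, with no overlap. Its difference was -0.96 ± 0.29 (SE, n = 3; adjusted p = 0.171 in edgeR), against -0.43 for miR-216a-5p. miR-217-3p had 211, 301 and 265 CPM in the controls and 137, 156 and 200.5 CPM in the treated libraries, again with no overlap. Its difference was -0.66 ± 0.26 (SE, n = 3; adjusted p = 0.489 in edgeR). miR-216b-3p stood at -0.52 and miR-216b-5p at -0.38. For miR-148a the arms were near each other with all libraries, miR-148a-5p being at -0.55; without any 1 library miR-148a-5p stayed between -0.76 and -0.26, whereas miR-148a-3p was at 0.60 without control replicate 3. Mir216a and Mir217 lie 1 after the other in introns of the noncoding gene Gm12082 on chromosome 11, and all 4 of their tested miRNAs lay below 0.

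Arm balance, log2 of 3p over 5p counts, was tested over the 89 hairpins with both arms tested. None was called in limma (0 of 89, or 0%) and 1 reached an unadjusted p under 0.05 (1.12%), miR-335. Its ratio was -0.29, -2.55 and 0.40 in the controls and -2.19, -2.18 and -3.98 in the treated libraries, with overlap; miR-335-3p itself rested on few counts and had a difference of 0.36. Across hairpins, the differences of the 2 arms had a Pearson correlation of 0.403 and a Spearman correlation of 0.351; the arms of 1 hairpin share libraries and scaling, and hairpins are not independent replicates. Both arms lay above 0 for 27 hairpins and below 0 for 24, and they had opposite signs for 38. miR-30b had both arms lower and miR-30d had its guide above 0 and its passenger arm below.

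**Figure D3:**
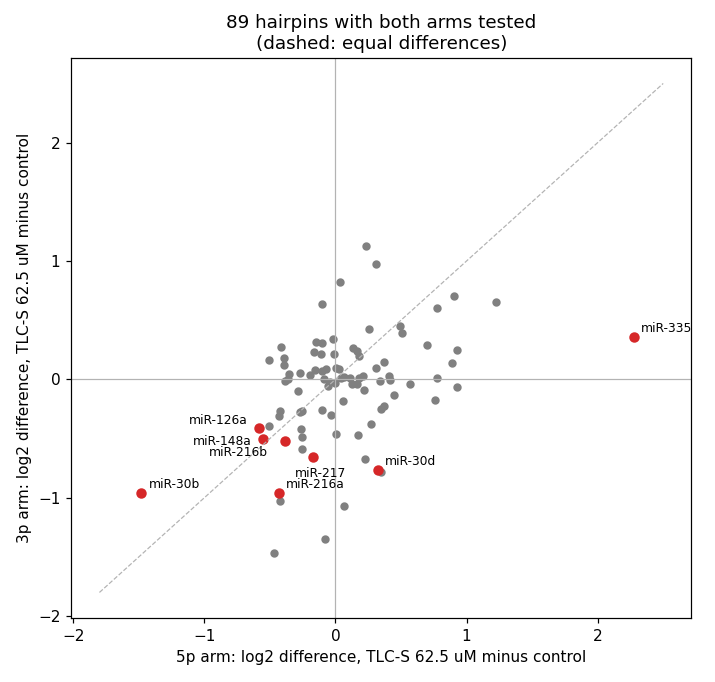
Each point is 1 of 89 hairpins, with the log2 difference (TLC-S 62.5 uM minus control) of its 5p arm on the x axis and of its 3p arm on the y axis; the dashed line marks equal differences and red points are hairpins named in the text. miR-335 lies at the right at 2.27 for its 5p arm and 0.36 for its 3p arm, and miR-30b at the left with both arms below 0.

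The other lists held no called miRNA. The list of inflammation induced miRNAs had 3 of 6 tested members above 0 and a median of -0.03, which took either sign with 1 library left out: -0.22 without TLC-S 62.5 uM replicate 2, 0.23 without replicate 1 and 0.22 without control replicate 3. miR-21a-5p, an abundant miRNA that rises in many injured tissues, had 19140, 17900 and 23280 CPM in the controls and 22470, 16240 and 10690 CPM in the treated libraries, a difference of -0.29 ± 0.26 (SE, n = 3). miR-21a-3p had at most 5.26 CPM in any of the 6 libraries, and its difference of -0.10 ± 0.80 (SE, n = 3) was 0.48 without control replicate 3 and 0.43 without TLC-S 62.5 uM replicate 1. miR-155-5p, made by activated leukocytes, was also near the detection limit and had a difference of 0.90 ± 0.74 (SE, n = 3), which was -0.14 without TLC-S 62.5 uM replicate 2. Of the calcium and CREB induced miRNAs, 0 of 3 lay above 0 (median -0.26, and -0.45 without control replicate 2), with miR-132-3p at -0.26. The p53 and stress list had 0 of 6 above 0 (median -0.11, and -0.30 without TLC-S 62.5 uM replicate 2), with miR-34a-5p, a p53 target, at -0.34 ± 0.34 (SE). For miRNAs that others have tied to bile acid receptors, 2 of 7 lay above 0 (median -0.08, between -0.15 and -0.01 with 1 library left out), with miR-29a-3p at 0.15 ± 0.21 (SE).

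Among the families, the let-7 miRNAs had 3 of 9 above 0 (median -0.10, ranging from -0.30 without control replicate 2 to 0.11 without control replicate 3), and the largest difference was that of let-7g-5p, at -0.43 ± 0.23 (SE). Near-identical let-7 members may share reads, and so may miR-199a-3p and miR-199b-3p. The miR-29 family had 4 of 5 above 0 (median 0.07, and -0.11 without TLC-S 62.5 uM replicate 3), the miR-17-92 cluster 3 of 7 (median -0.02, ranging from -0.22 without TLC-S 62.5 uM replicate 1 to 0.15 without replicate 3), and the imprinted Dlk1-Dio3 locus 14 of 22 (median 0.13, and -0.01 without TLC-S 62.5 uM replicate 2; miR-379-5p at 0.49 and higher in every treated library than in any control). The epithelial list of the miR-200 family and miR-203 had 5 of 10 above 0 (median 0.00, between -0.07 and 0.10 with 1 library left out). miR-200a-3p, its most abundant member, was at -0.26. In the miR-183 cluster 0 of 3 lay above 0 (median -0.30, and -0.19 without control replicate 1), and miR-183-5p was lower in each treated library than in any control at a difference of -0.30.

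Lists of other cell types that an acinar preparation can hold moved as follows. Islet and neuroendocrine miRNAs had 3 of 7 above 0 (median -0.26, and -0.05 without TLC-S 62.5 uM replicate 1); miR-375-3p, the most abundant of them, had a difference of 0.07 and took either sign when single libraries were left out (-0.09 without control replicate 3 and -0.15 without TLC-S 62.5 uM replicate 3). miR-7a-5p was at -0.30. Mesenchymal and stellate miRNAs had 8 of 9 above 0 with a median of 0.10, and of 0.03 without TLC-S 62.5 uM replicate 3; miR-143-3p was at 0.13 and miR-199a-3p at 0.09. Both endothelial miRNAs lay below 0, miR-126a-3p at -0.41. Their share of all counts was 0.626% to 0.839% in the controls and 0.478% to 0.695% in the treated libraries. Leukocyte miRNAs had 1 of 3 above 0 (median -0.12, and 0.17 without control replicate 3), with miR-150-5p at -0.16, and took at most 0.00847% of the counts of any of the 6 libraries. Erythrocyte miRNAs had 3 of 4 above 0 (median 0.26, and 0.07 without TLC-S 62.5 uM replicate 3). Muscle and liver miRNAs had 3 of 4 above 0 with a median of 0.62. In that list miR-133a-3p had 2.42, 1.50 and 0.478 CPM in the controls and 7.24, 6.43 and 4.13 CPM in the treated libraries. These levels rest on 5, 4 and 1 counts against 15, 16 and 6. miR-1a-3p had 13.1, 13.5 and 8.60 CPM against 32.8, 14.5 and 34.5 CPM. Both sets were free of overlap and neither was called. The other tested members were the muscle miRNA miR-206-3p, at -0.10, and the liver miRNA miR-122-5p, at 0.04. The whole muscle and liver list took 0.00176% to 0.00443% of counts in the controls and 0.00508% to 0.00591% in the treated libraries. The part of other cell types in the differences above was not tested.

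**Figure D4:**
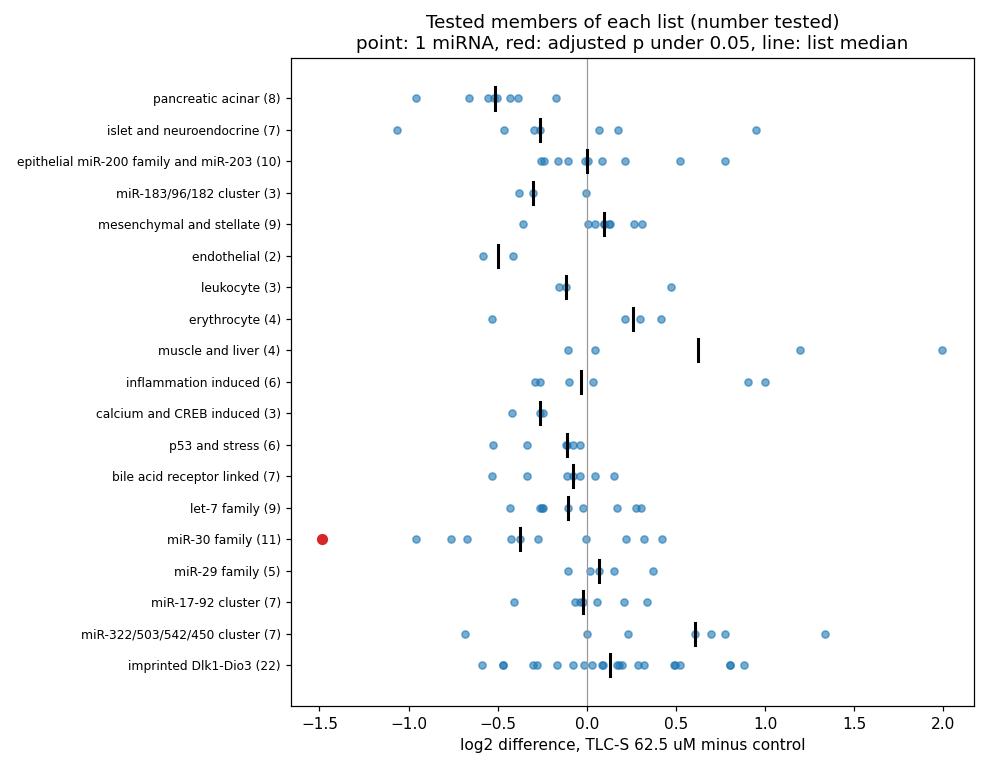
Each point is 1 tested miRNA of a list (number tested in brackets), placed by its log2 difference, TLC-S 62.5 uM minus control; black lines are list medians and the red point, miR-30b-5p, is the 1 call within the 19 lists. All 8 acinar miRNAs lie below 0, with the median at -0.51.

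To see which levels set TLC-S 62.5 uM apart from acini that had also been treated, its libraries were compared with the mean of the other 3 treated groups. This comparison shares its TLC-S 62.5 uM libraries with the one above, so these comparisons are not independent. In edgeR 9 of 351 miRNAs changed (2.56%), 5 higher and 4 lower; with scaling by library totals the split was 6 higher and 2 lower. miR-3968 fell by 2.33 on the log2 scale (SE 0.27, adjusted p = 2.51e-06 in edgeR) and miR-30b-5p fell by 1.56 (SE 0.29, adjusted p = 0.00132 in edgeR). miR-335-5p rose by 2.84 (SE 0.49, adjusted p = 0.000858 in edgeR). The other lower calls were miR-190a-5p (-1.33, adjusted p = 0.0427 in edgeR) and miR-217-3p (-0.85, adjusted p = 0.0341 in edgeR). The other higher calls were miR-195a-5p (1.14), miR-542-3p (1.22), miR-203-3p (0.72) and miR-185-5p (0.90), with adjusted p-values between 0.00882 and 0.0434 in edgeR. miR-216a-3p, at -0.89, just missed the threshold (adjusted p = 0.0501 in edgeR).

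The levels behind these calls differed in kind. For miR-3968, the 9 other treated libraries ranged from 31.5 to 92.5 CPM, with the highest values in the caerulein groups (78.1 ± 13.2 CPM at 100 nM and 64.0 ± 8.01 CPM at 100 pM, SD, n = 3), so TLC-S 62.5 uM held the 3 lowest levels of the series. miR-335-5p was between 0 and 9.23 CPM in the 9 other treated libraries. miR-195a-5p, which shares the seed AGCAGCA with 5 other tested miRNAs including miR-322-5p, had 142, 95.7 and 79.9 CPM with TLC-S 62.5 uM. The other treated libraries had 27.7 to 85.8 CPM, and the controls, with 71.7, 85.3 and 63.1 CPM, lay above most of those; against control its difference was 0.53 and not called. miR-203-3p, known from epithelial differentiation, had 1459, 866 and 960 CPM with TLC-S 62.5 uM and 539 to 805 CPM in the other treated libraries. Against control its libraries overlapped, and its difference was 0.52 and not called (adjusted p = 0.648 in edgeR). The number of calls depended on single libraries: it was 3 without TLC-S 62.5 uM replicate 1, 16 without replicate 3, 15 without Caerulein 100 pM replicate 1, and 4 without TLC-S 250 uM replicate 2, Caerulein 100 nM replicate 2 or Caerulein 100 pM replicate 2. miR-3968, miR-30b-5p and miR-335-5p were called each time.

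**Figure D5:**
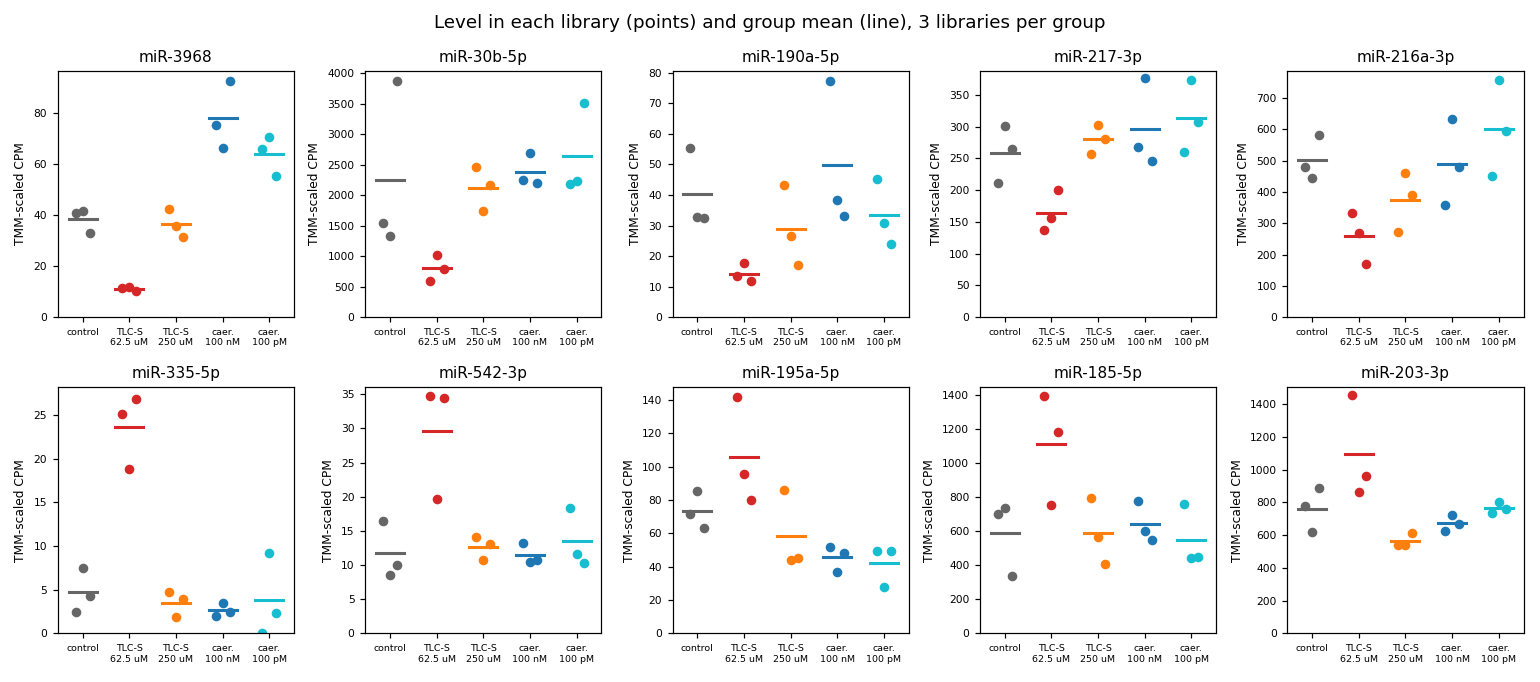
TMM-scaled CPM (y axis, from 0) of 10 miRNAs in each of the 15 libraries by group, with a line at the mean of 3 libraries. The TLC-S 62.5 uM libraries are the lowest of all groups for miR-3968 (10.3 to 11.7 CPM) and miR-30b-5p and the highest for miR-335-5p (18.9 to 26.9 CPM).

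The 2 doses of TLC-S were compared directly. In edgeR 4 of 351 miRNAs differed (1.14%): miR-3968 (-1.69 ± 0.31 SE, adjusted p = 0.00344) and miR-30b-5p (-1.40 ± 0.32 SE, adjusted p = 0.0367) were lower at 62.5 uM than at 250 uM, and miR-335-5p (2.71 ± 0.68 SE) and miR-203-3p (0.96 ± 0.24 SE) were higher, both at an adjusted p of 0.0449. At 250 uM miR-3968 had 42.5, 35.6 and 31.5 CPM and miR-30b-5p had 2469, 1736 and 2163 CPM, so at the higher dose both overlapped the controls. miR-335-5p had 4.73, 1.91 and 3.98 CPM at 250 uM. Leaving out each of the 6 libraries of the 2 doses in turn, the call of miR-3968 held each time, that of miR-30b-5p held without TLC-S 62.5 uM replicate 2 alone, and those of miR-335-5p and miR-203-3p held in none. With RLE or upper quartile scaling the calls were the 2 lower miRNAs alone. For miR-190a-5p the difference between doses was -0.97 (95% interval -1.83 to -0.12) and for miR-217-3p it was -0.77 (-1.30 to -0.24), neither called. For miR-216a-3p it was -0.54 (-1.13 to 0.06), an interval that holds 0 as well as a change larger than that against the other treated groups.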

How the data were processed

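RNA was extracted with mirVana and sequenced on a HiSeq, per the labels' protocols. The submitters' processing notes name cutadapt, Bowtie and the builds GRCm38 and mm10; the sources used here give no versions and no counting tool. The authors deposited estimated counts (expected counts) per mature miRNA, whole numbers within 0.5 of the sum over precursors, and RPM, used for alternatives alone. One edgeR 4.0.16 model (R 4.3.3) held the means of 5 groups over all 15 libraries (10 residual degrees of freedom), with TMM, filterByExpr (minimum count 10, total 15) and Benjamini-Hochberg adjustment over 351 miRNAs at 0.05. Arm ratios, after adding 0.5, were tested with limma 3.58.1. The procedures were also run on simulated counts, drawn from the levels and spread of these data, and on simulated arm ratios. These runs check the code and not the calls above. Seeds came from RefSeq, which matched 312 tested miRNAs, and positions from GENCODE release M21. No molecular tags are mentioned in the labels, so limits from counts cover counting error only.

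The members, miRNA lists and naming rule were chosen with earlier results of these data known. The rule named the called miRNAs, the 12 smallest p-values a direction, the 8 most abundant miRNAs, 4 per list, and relatives of called miRNAs; miR-155-5p, miR-190b-5p, miR-335-3p, miR-216b-3p, miR-351-5p, miR-450b-5p and miR-503-5p were added after their values were seen. The 19 lists are those in the plot of list members. Alternatives covered scaling, filters, DESeq2 1.42.0, limma on log2 RPM, each library left out and a replicate block.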

Additional observations from a re-analysis of the deposited data

Results flagged for a closer look

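For 4 miRNAs the effect of TLC-S differed between its 2 doses by a test of the difference itself, in edgeR's quasi-likelihood model over 351 miRNAs. Both effects are taken against the same 3 control libraries, so the difference of effects equals the difference of the 2 doses. For miR-3968 the difference of effects (62.5 uM minus 250 uM) was -1.69 on the log2 scale, for miR-30b-5p -1.4, for miR-203-3p 0.96 and for miR-335-5p 2.71. miR-3968, miR-30b-5p and miR-335-5p lay outside the range of the controls at the lower dose and overlapped it at the higher dose. miR-203-3p was highest in TLC-S 62.5 uM replicate 1, at 1459 CPM, and overlapped the controls at the lower dose. When single libraries of the 2 doses were left out, only miR-3968 kept its call between doses each time. miR-30b-5p kept it only without TLC-S 62.5 uM replicate 2. The calls of miR-335-5p and miR-203-3p held in none of these fits, and neither was called against control in edgeR's main fit.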

How the results depend on the processing

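Of 1085 values of 61 single miRNAs under alternatives, 1057 kept their direction and side of the threshold. Another 8 were no longer called, 9 became called and 11 changed sign. Most of these miRNAs had no call to lose, so the 1057 say little about how firm the calls are. Only miR-3968 and miR-30b-5p could lose a call, and all 8 losses were theirs. miR-3968 was called in 16 of 18 settings and miR-30b-5p in 12 of 18. Against control, 2 miRNAs were called; the count was 1 with library totals, 5 without a low-count filter, 4 in DESeq2, 0 in limma on log2(RPM + 1), 0 with the 2 groups alone, and 1 to 2 with single libraries left out. At an unadjusted p under 0.05 those with 0 calls had 20 and 19 miRNAs. Against the other treated groups, 9 were called; the count was 19 without a filter and 3 to 16 with single libraries left out. Between doses, 4 were called; the count was 2 with RLE, 2 with upper quartile scaling, 2 with TMM without the 3 most abundant miRNAs, 1 at a mean CPM of at least 10, and 1 to 2 with single libraries left out. Of the seeds 1 was called, 2 without a filter and 4 in DESeq2. Of the arm ratios 0 were called, and 0 to 1 with single libraries left out (miR-30d, without TLC-S 62.5 uM replicate 3).

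Replicate numbers came from the library codes, and what a shared number marks is not stated. Deviations from the group means correlated at 0.07, 0.00 and -0.12 for same-numbered control and treated libraries. For pairs with different numbers the correlations ranged from -0.20 to 0.18. So few pairs cannot decide whether libraries with 1 number share a preparation or batch. With the number as a replicate block, 5 miRNAs were called against control, 20 against the other treated groups and 4 between doses; 6 seeds and 0 arm ratios were called. Against control the block added miR-335-5p (2.41), miR-190a-5p (-1.43) and miR-184-3p (0.96) to miR-3968 and miR-30b-5p.

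Signs changed for miR-21a-3p with library totals (0.11) and in limma on log2(RPM + 10) (0.0355). With single libraries left out, miR-21a-3p ranged from -0.58 to 0.48, miR-503-5p from -0.90 to 1.08, miR-217-5p from -0.38 to 0.0045, miR-335-3p from -0.0666 to 1.28, miR-155-5p from -0.14 to 1.37, miR-148a-3p from -0.84 to 0.60 and miR-375-3p from -0.15 to 0.27. Library totals moved the median of all miRNAs from -0.02 to 0.14 against the other treated groups. The cause of these changes was not tested. Counts were low for miR-335-5p and miR-21a-3p: a count of 0 allows up to 2.37 CPM in the shallowest of the 6 libraries.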
